A study of Homo sapiens with 62 samples.

Results

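SLAM-seq measured the RNA made in the last 2 h of a 4 h RUVBL1/2 inhibition in AsPC-1. This human pancreatic ductal adenocarcinoma cell line is used as a model of the classical subtype. The comparison takes every AsPC-1 library labelled as treated with CB-6644 for 4 h (5 libraries) and every AsPC-1 library labelled with the solvent DMSO for 4 h (5 libraries), 10 of the 62 libraries in the series. CB-6644 is an allosteric inhibitor of the RUVBL1/2 ATPase. Both groups carry the same genotype, FKBP12-F36V-FLAG-KLF5_sgEndogenousKLF5: a degradable, FLAG-tagged KLF5 cDNA was delivered by lentivirus and the endogenous KLF5 gene was cut with a guide RNA, so that KLF5 in these cells comes from the lentiviral construct. The cells were drug-selected after infection and are not described as a single clone. None of the 10 cultures received a KLF5 degrader. 4-Thiouridine, a uridine analogue that is read as T-to-C changes after alkylation, was present for the last 2 h, and a read with such a change (a T>C read) therefore comes mostly from RNA made in that window. The libraries carry a 2-part number, as in 1.3, whose first part is taken here as the experiment and whose second part is the replicate: 3 libraries per group came from experiment 1 and 2 per group from experiment 2. The batch field of the labels is the same, 1, for all 10. Nothing in the labels says that replicates of 1 experiment were separate cultures. For its SLAM-seq the study's figure legend speaks of 2 biological replicates in each condition and of 3 independent AsPC-1 experiments. It does not say which libraries these are. The p-values therefore measure the spread between these libraries, which may be technical.

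RUVBL1 and RUVBL2 are AAA+ ATPases that assemble into a ring. They are core subunits of the chromatin remodellers INO80 and SRCAP and of the TIP60 acetyltransferase complex, and with the R2TP chaperone they help to build RNA polymerase II, box C/D small nucleolar ribonucleoproteins and the PIKK kinases. KLF5 is a zinc-finger transcription factor of epithelia that binds GC-rich DNA and maintains lineage genes in pancreatic cancer. The question of the comparison was whether blocking the ATPase changes the transcription of KLF5 target genes and of classical identity genes within hours.

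The libraries held 8507728 to 14142965 T>C reads of 82676553 to 138471323 reads in all. All 10 epithelial markers examined passed the filter on low counts. Of 9 fibroblast and mesenchymal markers 2 passed (VIM and LUM), and of 9 blood and endothelial markers 1 passed (CD68). The other 15, among them COL1A1, COL3A1, PTPRC, PECAM1 and VWF, had between 0 and 13 T>C reads summed over a group of 5 libraries. The cultures fell into 2 sets by DCLK1 in all reads, at 19.7 to 43.6 CPM (counts scaled to the library total) in the high set and 0.302 to 1.55 CPM in the low set over the 41 AsPC-1 libraries examined. CB-6644 1.2, CB-6644 1.3 and DMSO 1.3 belonged to the high set and the other 7 libraries to the low set, so the sets were not balanced between the groups, and counts with the culture set added to the block are given beside the main ones. DMSO 1.1, the shallowest library, stood farthest from the others (mean distance 1.05 on the log2 T>C CPM scale, against 0.818 to 0.942 for the rest).

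The inhibitor acts on the RUVBL1/2 proteins, so their transcripts do not check the treatment. Newly made RUVBL1 RNA stood at 5.34, 9.15, 8.33, 8.35 and 11.9 T>C CPM after CB-6644 (libraries 1.1, 1.2, 1.3, 2.1 and 2.2, the order used throughout) and at 12.1, 9.70, 6.07, 5.70 and 5.75 after DMSO. The groups overlapped (log2 fold change 0.16 ± 0.31 SE). RUVBL2 also overlapped, with a log2 fold change of 0.39 ± 0.31. KLF5 itself had 93.8 to 138 T>C CPM after CB-6644, within the DMSO range of 72.8 to 210, and its log2 fold change was 0.00 ± 0.22. That value averages 0.37 in experiment 1 and −0.57 in experiment 2, and no difference in these KLF5 reads was detectable at this spread. Reads were counted on annotated 3′UTR exons, and the methods do not say whether the lentiviral cDNA carries the KLF5 3′UTR. The value may therefore not describe the transcript that supplies KLF5 in these cells.

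The labelled part of the RNA as a whole was lower after CB-6644. T>C reads were 8.43%, 8.40%, 8.90%, 8.23% and 8.58% of all reads after CB-6644 and 10.3%, 10.6%, 10.6%, 9.36% and 9.42% after DMSO. Every CB-6644 library lay below every DMSO library, with means of 8.51% ± 0.254 (SD, n = 5) and 10.1% ± 0.624 (SD, n = 5). The difference of −1.55 percentage points had a two-sided exact permutation p of 0.0167 when libraries were exchanged within experiments, the smallest value that the 120 possible splits allow. It was −1.92 points in experiment 1 (exact permutation p = 0.1) and −0.985 points in experiment 2 (exact permutation p = 0.333), and neither experiment alone can reach the threshold. The share was also taken gene by gene, as T>C reads over all reads of the gene. Its median over genes ran from 13.3% to 14.2% after CB-6644 and from 14.3% to 17.8% after DMSO, with 16.8% to 17.8% in the DMSO libraries of experiment 1 and 14.3% to 14.7% in those of experiment 2. The gap between the groups was thus wider in experiment 1. No spike-in and no unlabelled library were used here, so a lower share cannot be told apart from less uptake of the label, and the number of cells and the amount of RNA per cell are unknown.

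**Figure D1:**
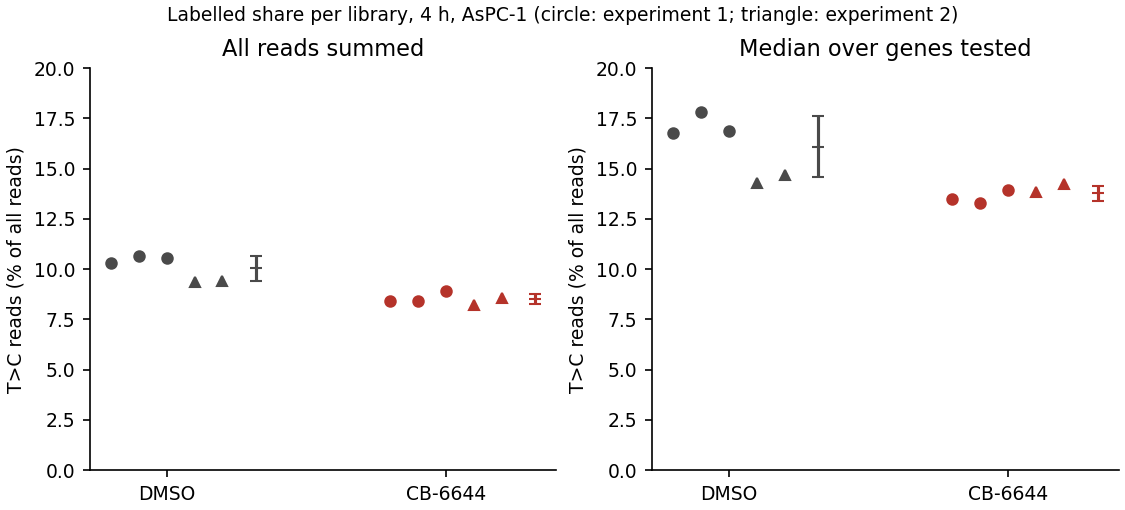
Labelled share per library after 4 h of DMSO or CB-6644 in AsPC-1, in percent of all reads (left) and as the median over genes (right). Circles are libraries of experiment 1, triangles of experiment 2, and the bar is the mean ± SD of 5 libraries. On the left all CB-6644 libraries, at 8.23% to 8.90%, lie below the DMSO libraries, at 9.36% to 10.6%.

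Gene by gene, the share fell in 468 of the 11649 genes tested and rose in 0 (4.02% called lower, limma with the experiment as a block, Benjamini-Hochberg adjusted p under 0.05). The log2 difference was below 0 in 9701 genes, 83.3% of those tested, and its median over all genes was −0.21, at −0.32 in experiment 1 and −0.05 in experiment 2. The count was 282 with the culture set added to the block, and 130, 153, 201, 181, 158 and 205 without CB-6644 1.2, 1.3 or 2.1 or DMSO 1.1, 1.2 or 1.3. Each value of the per-gene share below therefore contains this common shift. When every library was centred on its own median, 0 genes were called at an adjusted p under 0.05, with 565 lower and 474 higher at an unadjusted p under 0.05. The centred difference of a named gene, which leaves the common shift out, is given beside its uncentred difference. The 9529 genes with a mean of 50 or more T>C reads were also split into 4 sets of about equal size. They were ordered by their share in libraries of the inactive degrader dTAGv-1-NEG, which the comparison does not use. From the lowest to the highest share the median log2 difference was −0.24, −0.23, −0.22 and −0.18. In these sets 6.34%, 5.16%, 5.08% and 3.02% of genes were called lower, on fewer genes than the 4.02% above.

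The T>C counts, scaled to each library's total of T>C reads, ask which genes changed their part of the new RNA, and here 0 of 11649 genes passed an edgeR quasi-likelihood adjusted p under 0.05 in either direction. At an unadjusted p under 0.05, 296 genes (2.54%) were lower and 256 (2.2%) higher. DESeq2 called 4 genes, 3 of them lower, and summing the libraries of each experiment before the test called 15, with 9 lower. The smallest adjusted p was 0.227, for CEACAM1. This gene (chr19:42507304-42561234, minus strand, GRCh38) encodes a cell-surface adhesion glycoprotein of the apical membrane in glandular epithelia and had not been placed on the KLF5 target list. It had 33.6, 29.5, 22.3, 17.7 and 18.7 T>C CPM after CB-6644 and 58.4, 58.7, 56.1, 36.4 and 36.6 after DMSO. All 5 CB-6644 libraries were lower than all 5 DMSO libraries, with a log2 fold change of −1.01 ± 0.15 and the same −1.02 in each experiment. The groups were apart in this way in 40 of the 11649 genes with CB-6644 lower (0.343%) and in 45 with CB-6644 higher (0.386%). The labelled share of CEACAM1 fell from between 9.19% and 13.9% after DMSO to between 4.66% and 7.02% after CB-6644 (log2 difference −1.03, adjusted p = 0.00538, centred −0.81), while its log2 fold change in all reads was −0.22. After KLF5 degradation its T>C log2 fold change was −1.66.

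Labelled share fell in 33 of 69 KLF5 target genes. The study had chosen 69 AsPC-1 targets on libraries with and without the KLF5 degrader, and all 69 were tested here, in libraries that took no part in that choice. The median log2 fold change of their T>C counts was −0.29, against −0.01 over all genes tested, at −0.23 in experiment 1 and −0.32 in experiment 2. In each CB-6644 library, set against the mean of the DMSO libraries of its experiment, the median target stood at −0.27, −0.25, −0.26, −0.36 and −0.27. Of the 69, 62 were below 0 and 43 were below 0 in both experiments, against 5931 and 3071 of the 11649 genes tested. No target passed the adjusted threshold in T>C counts, and 21 were lower and 0 higher at an unadjusted p under 0.05. The 33 targets that fell in labelled share were 47.8% of the list, against 4.02% of all genes, 0 rose, and 68 were below 0. The median share of a target was 20.8% after DMSO and 15.4% after CB-6644, a median log2 difference of −0.41 and of −0.19 after centring. In 31 of the 69 the groups did not overlap in share, against 7.53% of all genes. With the culture set added to the block, 22 targets were called in share and 23 were lower at an unadjusted p in T>C counts. With centring 0 were called in share, and 30 targets were lower and 1 higher at an unadjusted p under 0.05. The count of 33 fell to 12 without CB-6644 1.2, to 14 without CB-6644 1.3 or DMSO 1.2, to 18 without CB-6644 2.1 or DMSO 1.1 and to 19 without DMSO 1.3, and the count of 21 fell to 13 without CB-6644 2.1, CB-6644 2.2 or DMSO 2.1. In all reads the median target moved by −0.07.

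**Figure D2:**
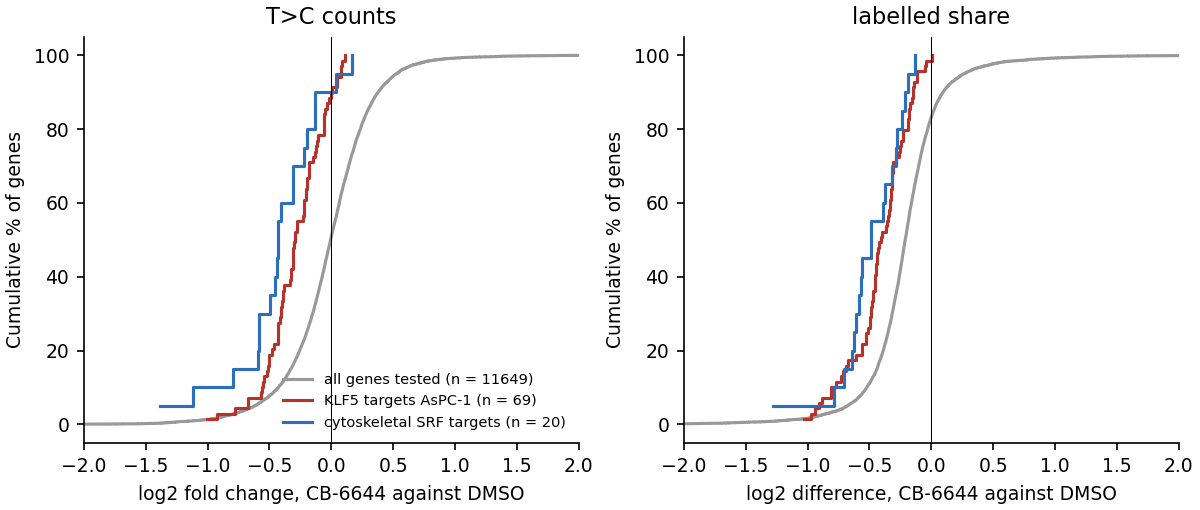
Cumulative distribution over genes of the log2 difference between CB-6644 and DMSO, for T>C counts (left) and the per-gene labelled share (right), in KLF5 target genes, cytoskeletal SRF targets and all genes tested. The KLF5 targets (median −0.29 left, −0.41 right) and the SRF targets (median −0.43 left, −0.49 right) lie to the left of all genes (median −0.01 left, −0.21 right). The SRF list was chosen with earlier results of these data known.

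The sequence before the start site is shown for 4 of the genes described next, because KLF5 binds GC-rich elements and the serum response factor SRF binds the CArG box, and both factors give their name to a gene list described here. The sequences are from RefSeq on GRCh38.p14, each of 250 bases ending just before the annotated start, 5′ to 3′ on the gene's strand. Capitals mark the KLF-type motif GGGNGNGGC on either strand and the CArG box.
KLK10, chr19:51019862-51020111, minus strand: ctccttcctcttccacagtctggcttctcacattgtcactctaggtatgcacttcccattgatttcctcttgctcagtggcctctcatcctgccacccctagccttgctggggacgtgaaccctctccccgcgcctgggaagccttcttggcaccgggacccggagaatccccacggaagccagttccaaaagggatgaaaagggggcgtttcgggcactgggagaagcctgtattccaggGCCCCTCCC
FA2H, chr16:74774821-74775070, minus strand: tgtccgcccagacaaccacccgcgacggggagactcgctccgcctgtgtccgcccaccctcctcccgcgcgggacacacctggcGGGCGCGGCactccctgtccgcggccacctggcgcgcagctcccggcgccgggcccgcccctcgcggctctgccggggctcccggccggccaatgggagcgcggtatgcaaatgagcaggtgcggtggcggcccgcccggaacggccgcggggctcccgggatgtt
ACTG1, chr17:81512800-81513049, minus strand: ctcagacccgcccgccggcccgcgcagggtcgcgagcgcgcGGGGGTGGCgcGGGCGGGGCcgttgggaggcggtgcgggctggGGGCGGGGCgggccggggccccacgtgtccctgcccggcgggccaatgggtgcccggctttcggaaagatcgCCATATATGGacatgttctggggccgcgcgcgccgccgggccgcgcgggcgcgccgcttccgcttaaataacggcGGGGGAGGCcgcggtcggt
FHL2, chr2:105438514-105438763, minus strand: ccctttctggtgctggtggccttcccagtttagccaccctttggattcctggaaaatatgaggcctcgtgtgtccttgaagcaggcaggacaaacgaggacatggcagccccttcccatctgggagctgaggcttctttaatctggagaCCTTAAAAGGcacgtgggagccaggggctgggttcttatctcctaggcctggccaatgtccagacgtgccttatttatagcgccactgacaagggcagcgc

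Counting positions from the start, KLK10 and FA2H each hold a KLF-type match in this window, at −9 and −166. ACTG1 holds 4, at −209, −198, −166 and −19, and a CArG box at −94. FHL2 holds a CArG box at −101 and no KLF-type match. The promoters of LAMB3, CEACAM1 and ZYX were also examined and are not shown. LAMB3 and CEACAM1 hold neither motif, and ZYX, an SRF target, holds a KLF-type match at −245 and no CArG box. Of the genes whose sequence is shown, KLK10 alone is on the AsPC-1 KLF5 target list. Over the full window of 250 bases before to 50 after the start, the KLF-type motif was present in 26 of the 52 KLF5 targets with a RefSeq promoter (50%), against 46.4% of the 9127 tested genes with a promoter and 30.5% of all 27305 promoters. The KLF-type motif was also in 12 of 17 matched SRF targets (70.6%) and in 5 of 15 matched brush border and secreted classical genes (33.3%), a list described below. The CArG box was in 1 of those 52 KLF5 targets and in 6 of the 17 SRF targets (35.3%), against 1.04% of the promoters of tested genes. The share of KLF5 targets with the KLF-type motif was thus close to that of the other genes tested.

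The targets were then read by role, where the counts called in share stand against 4.02% of all genes and 47.8% of the whole target list and set no role apart from that list. Among the targets with secreted or membrane-bound ligands, 3 of 6 fell in labelled share (50%). FGF19, the endocrine growth factor of the enterohepatic axis, had 46, 30.9, 27.5, 35.2 and 47 T>C CPM after CB-6644 and 136, 66.6, 52.5, 55.5 and 51.0 after DMSO. All CB-6644 libraries were lower, with DMSO 1.1 far above the rest of its group, and the log2 fold change was −0.92 ± 0.29 (edgeR unadjusted p = 0.00879, adjusted p = 0.932). The share of FGF19 was 23.7% to 35.8% against 32.2% to 46.6% and did not pass the test (adjusted p = 0.0724, centred −0.12). EFNB1, an ephrin ligand, fell in share from between 17.8% and 27.3% to between 14.1% and 17.5% (log2 difference −0.49, adjusted p = 0.0298, centred −0.27). SEMA4B, a semaphorin, fell by 0.35 on the log2 scale (adjusted p = 0.0337), most of which was the common shift (centred −0.13, unadjusted p = 0.0860).

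Receptors among the targets fell in share in 4 of 9 cases (44.4%). GPRC5A (chr12:12891559-12917937, plus strand), an orphan receptor of epithelial cells, had a share of 11.7%, 10.1%, 9.75%, 11.1% and 11.3% after CB-6644 and of 16.3%, 17%, 15.3%, 17.7% and 15.7% after DMSO. The groups were clearly apart and the log2 difference was the same size in both experiments (−0.61 ± 0.08, adjusted p = 0.00421, −0.63 and −0.58, centred −0.39). THBD, the thrombin receptor thrombomodulin, fell from between 29.0% and 38.8% to between 21% and 26.2% (−0.49, adjusted p = 0.0276, centred −0.27), and its T>C count was among the lower ones (log2 fold change −0.57 ± 0.14, unadjusted p = 0.00165). PEAR1, an endothelial and platelet receptor, and IL22RA1, a cytokine receptor subunit of epithelia, fell by 0.56 and 0.81 on the log2 share scale (centred −0.34 and −0.59).

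Of the genes of the basement membrane and its receptors, 5 of 10 fell in share (50%). In share 10 of 10 were below 0 in both experiments, against 5924 of the 11649 genes tested. LAMB3 (chr1:209614870-209652425, minus strand), a beta chain of the epithelial basement membrane laminin, had 62.5, 74.1, 54.7, 71.8 and 72.7 T>C CPM after CB-6644 and 96.5, 56.1, 153, 236 and 170 after DMSO. DMSO 1.2 lay among the CB-6644 libraries and the other DMSO libraries were higher, which gave a log2 fold change of −1.002 ± 0.266 (unadjusted p = 0.00294). Its share was 6.18%, 5.49%, 5.32%, 5.66% and 6.49% against 9.88%, 10.6%, 8.98%, 14.0% and 10.6%, without overlap (log2 difference −0.88 ± 0.11, adjusted p = 0.00421, centred −0.66). ITGA6 and ITGB4 encode the alpha and beta chains of the laminin-binding integrin of hemidesmosomes. ITGA6 fell in share from between 10.3% and 15.9% to between 6.49% and 8.69% (−0.73, adjusted p = 0.00711, centred −0.51), and ITGB4 fell from between 7.18% and 8.72% to between 4.53% and 6.59% (−0.47, adjusted p = 0.0298, centred −0.26). TNS4, a focal adhesion protein that binds integrin tails, fell in share by 0.47 on the log2 scale (adjusted p = 0.0450, centred −0.26). LAMA3, the alpha chain of the same laminin, is on the target list of T3M-4 rather than of AsPC-1, and its share fell by 0.94 (adjusted p = 0.0116, centred −0.72), with an overlap of the groups.

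Of the 3 proteases and protease inhibitors, 2 fell in share (66.7%). KLK10 (chr19:51012739-51020175, minus strand), a secreted serine protease of the kallikrein family, had a share of 2.82%, 2.38%, 2.57%, 2.34% and 2.68% after CB-6644 and of 4.97%, 5.84%, 4.57%, 4.79% and 4.01% after DMSO. The highest CB-6644 library stood more than a percentage point under the lowest DMSO library (log2 difference −0.91 ± 0.10, adjusted p = 0.00421, centred −0.69). In all reads KLK10 was not lower (log2 fold change 0.20). PLAT, the tissue plasminogen activator, fell in share from 14.2%, 12.9%, 8.11%, 7.80% and 7.14% to 5.83%, 4.07%, 4.42%, 4.25% and 5.28% (log2 difference −1.03 ± 0.18, adjusted p = 0.0119, centred −0.81). The DMSO libraries 1.1 and 1.2 were the highest, and the difference was −1.28 in experiment 1 and −0.66 in experiment 2. SERPINB5, the epithelial serpin maspin, had a share of 13.3% to 18% against 13.8% to 23.3% and did not pass (adjusted p = 0.124, centred −0.11), with a T>C log2 fold change of −0.31 ± 0.23.

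Of 10 transcription factors and coregulators, 4 were lower in T>C counts at an unadjusted p under 0.05, against 2.54% of all genes and 21 of the 69 targets. In share 1 fell (10%), and their median share difference after centring was 0.07. HR, a nuclear corepressor of skin and hair, fell in share from between 18% and 26.0% to between 11.8% and 15.3% (log2 difference −0.69, adjusted p = 0.0117, centred −0.47). HES1, the Notch-responsive repressor, and BCL3, a nuclear partner of NF-kappaB, had T>C log2 fold changes of −0.39 and −0.52 (unadjusted p = 0.0217 and 0.0386). Their share differences were −0.14 and −0.23 (centred 0.08 and −0.01), while their counts in all reads were lower by 0.46 and 0.53 on the log2 scale. HES1 was at 47% to 50.6% labelled after DMSO, far above the median gene. ELF3, the epithelial ETS factor, had 244, 190, 169, 219 and 198 T>C CPM after CB-6644 and 238, 235, 127, 240 and 129 after DMSO. The groups overlapped throughout, and the log2 fold change was 0.07 ± 0.22.

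Channels and transporters fell in share in 4 of 7 targets (57.1%), and kinases, phosphatases and GTPase regulators in 6 of 10 (60%). SLC20A1, a phosphate transporter, fell from between 33.7% and 39.2% to between 26.0% and 30.5% (−0.33, adjusted p = 0.0257), most of which was the common shift (centred −0.11, unadjusted p = 0.139). SLC2A1, the glucose transporter GLUT1, fell by 0.43 (adjusted p = 0.0258, centred −0.21). KCNK1, a potassium channel, fell by 0.48 on the log2 scale (centred −0.26). RHOF, a small GTPase that makes filopodia, fell from between 11.2% and 16.1% to between 5.32% and 8.58% (−0.94, adjusted p = 0.0112, centred −0.72). CDKN1A, the cell cycle inhibitor p21, fell from between 30.3% and 42.9% to between 20.4% and 28.2% (−0.56, adjusted p = 0.00580, centred −0.34), with −0.57 and −0.55 in the 2 experiments. Its T>C count did not pass any threshold (log2 fold change −0.22 ± 0.31). SYNJ2, an inositol phosphatase, and DUSP4, a MAP kinase phosphatase, fell by 0.45 and 0.31. After centring they stood at −0.23 and −0.09 (unadjusted p = 0.0115 and 0.168).

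**Figure D3:**
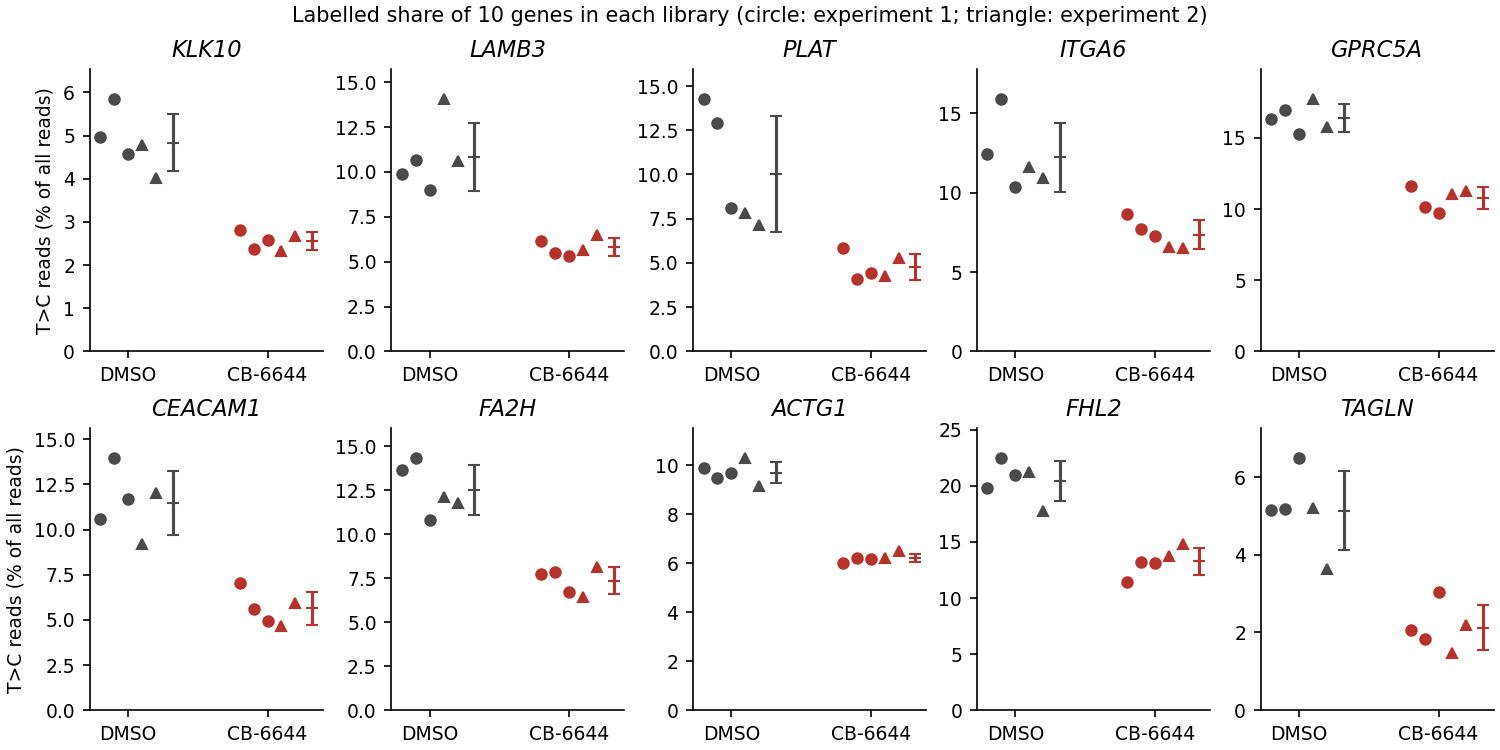
Labelled share (T>C reads in percent of all reads of the gene) in each library for 10 genes after 4 h of DMSO or CB-6644. Circles are libraries of experiment 1, triangles of experiment 2, and bars are the mean ± SD of 5 libraries. In each of the 10 genes the 5 CB-6644 libraries lie below the 5 DMSO libraries, for example at 2.34% to 2.82% against 4.01% to 5.84% for KLK10.

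Classical identity was examined at the level of factors and of differentiated products. Of 20 classical identity factors, 15 were tested and 0 passed in either measure, with 0 at an unadjusted p under 0.05 and a median T>C log2 fold change of −0.11. HNF4A, the hepatocyte nuclear factor of foregut epithelia, had 24.0 to 56.2 T>C CPM after CB-6644 and 20.1 to 45.8 after DMSO (log2 fold change 0.20 ± 0.22). GATA6 had 14.9 to 26.9 against 19.9 to 30.4 CPM (−0.31 ± 0.21), and KLF4 had −0.41 ± 0.27, with a DMSO range raised by DMSO 2.1 at 90.3 CPM. Of 25 brush border and secreted classical products 18 were tested. Their median T>C log2 fold change was −0.41 with −0.44 and −0.37 in the 2 experiments. Of these, 16 were below 0, against 5931 of the 11649 genes tested. Of the 18, 2 were lower at an unadjusted p under 0.05, and 4 fell in labelled share (22.2%, against 4.02% of all genes). These 4 were CEACAM1, FA2H, DHRS9 and TSPAN8. The members of this list were chosen with earlier results of these data known, so its counts are a description.

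FA2H (chr16:74712955-74774831, minus strand), the fatty acid hydroxylase of sphingolipids, had 21.7, 9.25, 7.35, 10.4 and 12.5 T>C CPM after CB-6644 and 28.3, 21.8, 18, 21.2 and 22.7 after DMSO. CB-6644 1.1 lay within the DMSO range and the other 4 were below it (log2 fold change −0.87 ± 0.28, unadjusted p = 0.00957). In share the groups did not overlap, at 6.42% to 8.13% against 10.8% to 14.3% (log2 difference −0.76 ± 0.13, adjusted p = 0.0129, centred −0.54). DHRS9, a retinol dehydrogenase, fell in share by 0.68 (adjusted p = 0.00421, centred −0.46) and TSPAN8, a tetraspanin of gastrointestinal tumours, by 0.45 (adjusted p = 0.0221, centred −0.24). MUC1, the apical transmembrane mucin, varied widely within both groups. It stood at 32.1, 3.11, 7.25, 2.96 and 5.91 T>C CPM after CB-6644 and at 48.7, 41.4, 4.32, 8.55 and 3.17 after DMSO. Both groups held libraries at a high and at a low level, and the log2 fold change was −0.87 ± 0.69 (unadjusted p = 0.234). MYO1A, the brush border myosin, was near the lower end of detection, at 0.324 to 2.56 against 0.716 to 2.88 CPM (−0.79 ± 0.59, unadjusted p = 0.205). The wider Moffitt Classical signature had a median of −0.14 over 134 genes tested, with 10 lower and 3 higher at an unadjusted p under 0.05. In share 7 were called (5.22%), close to the 4.02% of all genes. After centring its median share difference was −0.01, with 67 of 134 below 0. Over all genes 2.54% were lower and 2.2% higher in T>C counts at an unadjusted p under 0.05. The Moffitt Basal-like signature had a median of −0.02 over 107 genes, with 10 lower and 1 higher. In share 12 were called (11.2%, against 4.02% of all genes), and its median share difference after centring was −0.02. Genes called in share and named on the classical signature were TRNP1, a nuclear regulator of proliferation (log2 share difference −0.85, centred −0.63), ATP1B1, the sodium pump beta subunit (−0.63, centred −0.41), and SLC6A20, a proline transporter (−0.68, centred −0.46). On the basal-like signature AMIGO2, an adhesion molecule, fell from between 24.9% and 30.0% to between 18.1% and 18.9% (−0.60, adjusted p = 0.00421, centred −0.38). Of the 8 squamous and basal factors tested, KLF7 was lower at an unadjusted p under 0.05 (−0.37, p = 0.0141) and FOSL1 was not (−0.33, p = 0.0989).

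Genes annotated to KLF5 peaks specific to classical lines had a median T>C log2 fold change of −0.02 (501 tested, 27 lower and 9 higher at an unadjusted p under 0.05) and 8.98% called in share. Genes at peaks specific to basal-like lines had a median of 0.00 (513 tested, 14 lower and 10 higher) and 5.07% called. Over all genes the median was −0.01, 2.54% were lower and 2.2% higher at an unadjusted p under 0.05, and 4.02% were called in share. The counts at basal-like peaks were thus close to those of all genes. Genes at sites where H3K27 acetylation was KLF5-dependent in AsPC-1 had −0.04 and 8.82% called. The KLF5 target list of T3M-4, a basal-like pancreatic cancer line, had a median of −0.26 over 65 genes tested, with 16 lower and 0 higher at an unadjusted p under 0.05 and 23 called in share (35.4%). It shares 17 tested genes with the AsPC-1 list, 26.2% of its own and 24.6% of the AsPC-1 list.

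Genes of the actin cytoskeleton that SRF regulates fell in labelled share in 10 of 20 tested, of 21 listed. Their median T>C log2 fold change was −0.43, at −0.47 in experiment 1 and −0.39 in experiment 2. Of the 20, 18 were below 0, against 5931 of the 11649 genes tested. At an unadjusted p under 0.05, 8 were lower and 0 higher, against 2.54% and 2.2% of all genes. Their share difference was below 0 in all 20 in both experiments, against 5924 of the 11649 genes tested. It was called lower in 50% (against 4.02% of all genes) and had a median of −0.49 on the log2 scale. After centring the median was −0.27, 0 were called and 11 were lower at an unadjusted p under 0.05. With the culture set in the block 8 were called in share, and without CB-6644 1.3 the count in T>C counts was 5. The SRF list is not one of the study's and was chosen with earlier results of these data known. Its distance from all genes may thus be in part fixed by the choice, and its counts are a description. ACTG1 (chr17:81509413-81523847, minus strand), cytoplasmic gamma actin, had the smallest adjusted p of the share comparison. It stood at 6.01%, 6.22%, 6.18%, 6.21% and 6.49% after CB-6644 and at 9.87%, 9.47%, 9.67%, 10.3% and 9.15% after DMSO. The spread within each group was small beside the gap between them (log2 difference −0.64 ± 0.06, adjusted p = 0.000948, centred −0.42). Its T>C count did not pass (log2 fold change −0.31 ± 0.16), and its log2 fold change in all reads was 0.11. The actins have near-identical paralogues and pseudogenes, so how their reads were divided is uncertain.

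FHL2 (chr2:105357712-105438513, minus strand), a LIM-domain cofactor of SRF signalling, was lower in both measures. It had 461, 373, 341, 392 and 441 T>C CPM after CB-6644 and 620, 559, 535, 725 and 593 after DMSO, without overlap (log2 fold change −0.59 ± 0.13, unadjusted p = 0.000703). The share fell from between 17.7% and 22.5% to between 11.4% and 14.8% (−0.62 ± 0.09, adjusted p = 0.00580, centred −0.40). TAGLN, the actin-binding protein transgelin, was expressed at a low and uneven level, with 5.67, 1.37, 2.45, 16.2 and 23.5 T>C CPM against 12.9, 10.6, 3.71, 56.2 and 35.5. Experiment 2 was higher than experiment 1 in both groups, and within each experiment the CB-6644 values were lower on average (log2 fold change −1.39 ± 0.40, with −1.52 and −1.22). Its share fell from between 3.62% and 6.49% to between 1.47% and 3.05% (−1.28 ± 0.20, adjusted p = 0.00837, centred −1.06). ACTB, ZYX (zyxin), FLNA (filamin A) and TPM4 (a tropomyosin) fell in share by 0.57, 0.79, 0.61 and 0.71 on the log2 scale (centred −0.35, −0.57, −0.39 and −0.49), with T>C log2 fold changes of −0.43, −0.80, −0.50 and −0.44. In all reads TPM4 was at 0.04 and ZYX at −0.18.

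Among the other genes called in share and named by the rule was VIM (vimentin), which stood at 3.82%, 3.84%, 3.67%, 3.81% and 3.75% after CB-6644 and at 6.64%, 6.58%, 5.51%, 6.33% and 5.22% after DMSO (log2 difference −0.67 ± 0.08, adjusted p = 0.00421, centred −0.45). The CB-6644 values were close together and below every DMSO value, and the T>C count did not pass (−0.19 ± 0.19). YWHAZ, a phosphoserine-binding adaptor, fell from between 7.98% and 9.24% to between 5.37% and 6.05% (−0.60, adjusted p = 0.00421, centred −0.38). Of the 10 epithelial markers 4 fell in share (40%, against 4.02% of all genes), and the list's median after centring was −0.02. The 4 were the simple epithelial keratins KRT8, KRT18 and KRT19, which fell by 0.55, 0.81 and 0.76 (centred −0.33, −0.59 and −0.54), and CLDN4, a tight junction claudin, which fell by 0.58 (centred −0.36). ANXA2, an actin- and membrane-binding annexin, fell by 0.66 (adjusted p = 0.00843, centred −0.44).

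**Figure D4:**
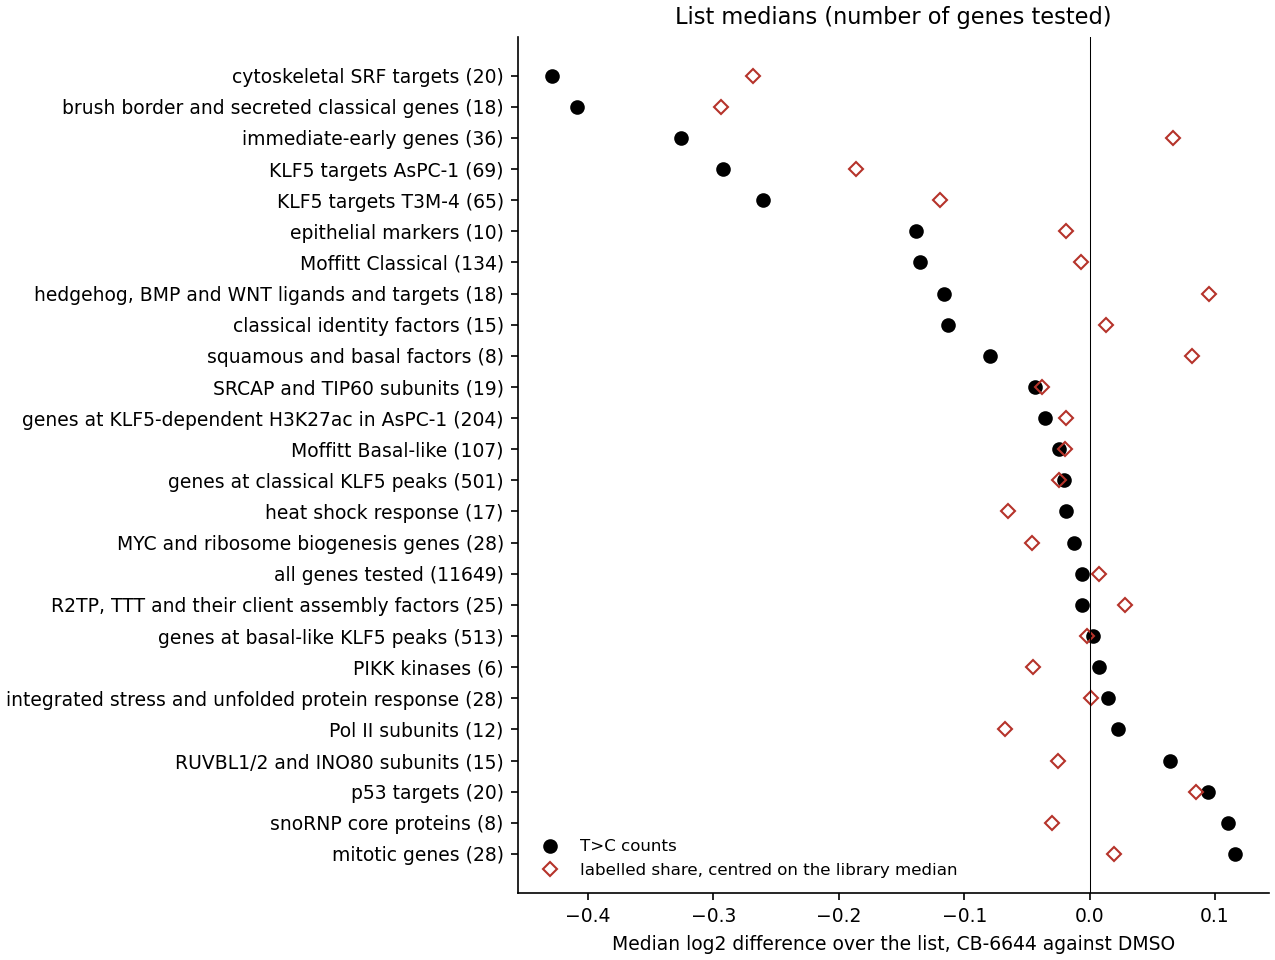
Median log2 difference between CB-6644 and DMSO over each gene list, for T>C counts (filled circles) and for the labelled share centred on the library median (open diamonds), with the number of genes tested in parentheses. The SRF targets (−0.43 and −0.27), the brush border and secreted classical genes (−0.41 and −0.29) and the KLF5 targets of AsPC-1 (−0.29 and −0.19) are on the negative side in both, while the subunit and stress lists lie near 0. The SRF and brush border lists were chosen with earlier results of these data known.

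For the machines that RUVBL1/2 belongs to or builds, the transcripts of the subunits were examined. RUVBL1/2 and INO80 subunits (15 tested), SRCAP and TIP60 subunits (19), R2TP, TTT and assembly factors (25), PIKK kinases (6), snoRNP core proteins (8) and RNA polymerase II subunits (12) had median T>C log2 fold changes of 0.06, −0.04, −0.01, 0.01, 0.11 and 0.02. Of these lists 0 genes were lower at an unadjusted p under 0.05 and 3 were higher, against 2.54% lower and 2.2% higher among all genes, so that neither count sets these lists apart. The 3 were NHP2, a box H/ACA snoRNP protein (0.62, p = 0.0126), EFTUD2, a spliceosomal GTPase built with R2TP (0.53, p = 0.0429), and POLR2A. KAT5, the TIP60 acetyltransferase, fell in share from between 9.60% and 14.8% to between 5.88% and 9.38% (−0.60, adjusted p = 0.0167, centred −0.38), and MCRS1 of INO80 by 0.39 (adjusted p = 0.0337, centred −0.17).

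POLR2A (chr17:7484366-7514616, plus strand), the largest subunit of RNA polymerase II, was among the genes with the smallest p on the higher side. It had 52.3, 89.8, 86.7, 96.7 and 87.3 T>C CPM after CB-6644 and 28.9, 46, 43.8, 58.3 and 61.3 after DMSO. CB-6644 1.1 lay within the DMSO range and the other 4 were above it (log2 fold change 0.82 ± 0.19, unadjusted p = 0.00131, adjusted p = 0.932). The value was 0.95 in experiment 1 and 0.61 in experiment 2. In libraries that share none of these controls, CB-6644 gave POLR2A a log2 fold change of 0.98 ± 0.30 in T3M-4 at 4 h (unadjusted p = 0.00882) and of 1.498 ± 0.181 in AsPC-1 at 12 h (unadjusted p = 9.51e-06, adjusted p = 0.116), and KLF5 degradation gave 0.05. None of these passed after adjustment. Other genes on the higher side were PGAP2 (0.80 ± 0.15, unadjusted p = 0.000245), which remodels lipid anchors of membrane proteins, NIT2, an omega-amidase (0.83 ± 0.19), CAMKK2, a calcium-dependent kinase (0.68 ± 0.18), CTSB, the lysosomal protease cathepsin B (0.40 ± 0.11), RPL31 (0.62 ± 0.17) and FMNL2, a formin (0.42 ± 0.13). NIT2 had 30.5 to 44.8 T>C CPM after CB-6644 and 16.5 to 28.6 after DMSO, without overlap. On the lower side and on none of the lists were LIF, a cytokine of the interleukin family (−0.67 ± 0.15, unadjusted p = 0.000801), MED11 of Mediator (−0.95 ± 0.24) and the divergent transcript CTBP1-DT (−0.77 ± 0.20). LIF had 23.2 to 25.5 T>C CPM against 32.2 to 49.4 and a log2 fold change of −0.71 in all reads.

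Among stress and growth programmes most medians lay near 0. The integrated stress and unfolded protein response (28 genes tested) had a median of 0.01, with HSPA5, the chaperone of the endoplasmic reticulum, at −0.14 ± 0.14. The heat shock response (17) had a median of −0.02, and within it the chaperone HSPA8 (−0.30) and its cochaperone STIP1 (0.69) lay on opposite sides. p53 targets (20) had a median of 0.09, with 1 gene higher at an unadjusted p under 0.05, the phosphatase PPM1D (0.61, p = 0.0321). MYC and ribosome biogenesis genes (28) had −0.01. Of these, 6 fell in share (21.4%, against 4.02% of all genes), NPM1 and NOP56 included (centred −0.05 and −0.14). After centring, the median share difference of the MYC list was −0.05, with 1 gene lower and 1 higher at an unadjusted p under 0.05. Mitotic genes (28) had 0.12, with UBE2C at 0.49 ± 0.27. Hedgehog, BMP and WNT genes (18) had −0.12, with the hedgehog target GLI1 at −0.97 (unadjusted p = 0.0239). Immediate-early genes (36) had a median of −0.33 that was not shared by the experiments, at 0.03 in experiment 1 and −0.66 in experiment 2. EGR1 had 29.9, 54.5, 54.8, 29.1 and 24.2 T>C CPM after CB-6644 and 37.2, 50.2, 73.5, 166 and 48.6 after DMSO, with DMSO 2.1 far above the others. KLF10 was lower in T>C counts (−0.56 ± 0.18, unadjusted p = 0.0105), at −0.23 and −1.07 in the 2 experiments.

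Some large fold changes were uneven between libraries. IGFBP2 had 1.31, 124, 142, 0 and 0.243 T>C CPM after CB-6644 and 1.43, 0.402, 71.0, 0 and 0 after DMSO, and was high in the 3 libraries of the DCLK1-high set and near 0 in the others. RPS2P5, a processed pseudogene whose reads cannot be separated from those of near-identical copies, had 6.43, 199, 16.9, 169 and 162 against 3.07 to 18.6. RPL31, named above on the higher side, was uneven as well. Its share was 9.59%, 26.5%, 14.9%, 22.9% and 26.7% after CB-6644 and 8.92% to 14.6% after DMSO, highest in the libraries where RPS2P5 was high. In all reads RPL31 had a log2 fold change of −0.25. IFT122 (1.33 ± 0.37) and LRSAM1 (1.21 ± 0.35) had a DMSO library within the CB-6644 range. MLXIPL, a glucose-responsive factor, had 0 to 5.23 CPM against 1.85 to 20.5 (−2.47 ± 0.83). RPS2P5, IGFBP2, IFT122, LRSAM1, MLXIPL and TAGLN were among the 15 genes called when the libraries of each experiment were summed.

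Finally, the values were set beside those of KLF5 degradation. The degrader dTAGv-1 against its inactive analogue in AsPC-1 used other libraries (20 of them) and called 350 of 11696 genes lower (2.99%) and 97 higher (0.829%). The 69 KLF5 targets had a median of −1.16 there. They were chosen on that contrast, so that a larger size there is in part fixed by the choice, and the difference is a description. The difference between the effects, CB-6644 minus degrader, was above 0 in 69 of 69 targets with a median of 0.97, and an interaction test over 12761 genes called 38 genes, 30 with the CB-6644 effect higher and 8 with it lower. Of the 30, 14 were KLF5 targets. HR was at −0.68 after CB-6644 and −2.68 after degradation (difference 2.02 ± 0.31), TNS4 at −0.67 and −2.73, PLAT at −0.78 and −2.05, and ELF3 at 0.07 and −1.38. TRNP1, no KLF5 target, went the other way, at −0.59 after CB-6644 and 0.19 after degradation. LAMB3 (−1.002 and −1.20), THBD (−0.57 and −0.68) and ITGA6 (−0.50 and −0.61) had values of similar size in both, and the interaction was not called for them. Over the 350 genes lower after degradation, the median after CB-6644 was −0.15, with 44 lower and 2 higher at an unadjusted p under 0.05 and 76 called in share (21.7%). The SRF targets had a median of −0.09 after degradation.

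**Figure D5:**
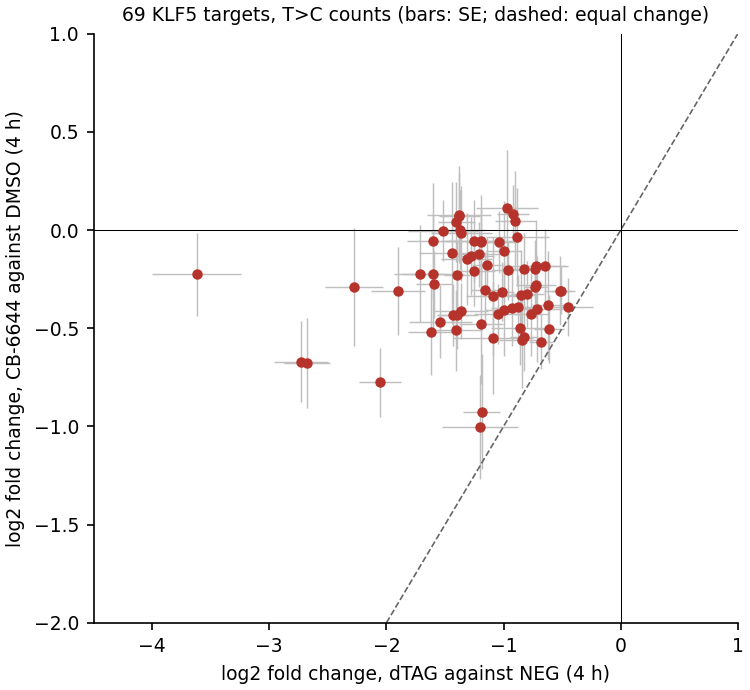
T>C log2 fold change of each of the 69 KLF5 targets in AsPC-1 after KLF5 degradation (horizontal) and after 4 h of CB-6644 (vertical), with standard errors, and the dashed line of equal effects. All 69 points lie above the line, with medians of −1.16 and −0.29.

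The other CB-6644 comparisons gave smaller medians for these targets. The 69 genes had a median of −0.05 after CB-6644 in T3M-4 at 4 h and of −0.18 in AsPC-1 at 12 h. The SRF targets had 0.07 and −0.09. No gene differed between the effect at 4 h in AsPC-1 and either of these at an edgeR adjusted p under 0.05 (0 of 13963 with 785 at an unadjusted p under 0.05, and 0 of 12720 with 439). CEACAM1 was at −1.01 here, at −0.10 in T3M-4 and at 0.23 in AsPC-1 at 12 h. KLK10 was at −0.51, −0.48 and −0.52. NVP-2, an inhibitor of the elongation kinase CDK9, was given to AsPC-1 cells for 4 h and is compared with the same DMSO libraries, so its values are set beside these without a test. The labels give the NVP-2 libraries another batch than the DMSO libraries, so batch and treatment cannot be told apart there. There the median was −0.71 for the KLF5 targets, 0.08 for the SRF targets and −2.17 for the immediate-early genes.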

How the data were processed

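The authors deposited unnormalized counts of reads for each gene, in a table of T>C reads and a table of all reads. By their methods, 3′ mRNA libraries were sequenced as single-end reads of 100 bases, mapped to hg38 3′UTR exons of GENCODE v44 and counted with slamdunk at default settings, and summed per gene. In 927 of 11178 genes (8.29%) all 10 T>C counts are multiples of a whole number above 1, so a read may have been counted more than once there. Among named genes this holds for HR, TSPAN8, KLF4, ZYX and KLF10. QuantSeq-type libraries place reads at transcript ends, so CPM were not divided by length, and levels are not compared between genes.

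From the deposited counts, T>C reads were tested with edgeR 4.0.16 (R 4.3.3: filterByExpr, TMM, quasi-likelihood F test, experiment as block). The labelled share was log2((T>C + 0.5)/(all + 1)), tested with limma 3.58.1 with the mean log2 T>C count as trend, on the same 11649 of 29794 genes. p-values were adjusted by Benjamini-Hochberg over all genes tested. Shares per library used exact permutation in R, over all splits within experiments. The edgeR fit of T>C counts and the limma fit of the share were tested on simulated data. DESeq2 1.42.0, other scalings, filters and pseudocounts, the all-read counts and the removal of each library were tried as alternatives.

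Named genes were RUVBL1, RUVBL2, KLF5, 6 classical genes, the 10 genes of smallest p in each direction with the same sign in both experiments and at least 10 CPM, up to 4 of smallest p in each list, up to 5 in each direction from the share, from the summed counts and from the culture-set block. Some genes that the rule names are not reported here. The members and lists were chosen with earlier results of these data known. The study's gene lists were used as lists only. Promoters are RefSeq's (GRCh38.p14), and 1 column of counts that matched no sample was not used.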

Additional observations from a re-analysis of the deposited data

Results flagged for a closer look

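Within each group of 5 libraries, the highest or lowest value of 24 of 348 groups examined stood apart by Dixon's 95% criterion, where chance gives about 1 in 20. In CB-6644 1.1, T>C CPM stood above the rest of its group for MUC1 (32.1, next 7.25), KCNK1 (367, next 264), TSPAN8 (382, next 149), AMIGO2 (239, next 173), MLXIPL (5.23, next 1.18) and ANXA2 (2600, next 1670), and below it for POLR2A (52.3, next 86.7), CAMKK2 (109, next 159) and IFT122 (47.3, next 109). The labelled share of that library was also the highest of its group for KCNK1 (23.3%, next 18.7%) and CLDN4 (26.0%, next 20.5%). DMSO 1.1 stood apart for FGF19 (136 CPM, next 66.6) and the share of RHOF (16.1%, next 11.7%), and DMSO 1.2 for the shares of SLC20A1 (39.2%, next 35.0%) and SYNJ2 (30.0%, next 25.5%) and for IFT122 (83.4 CPM, next 35.2, and a share of 9.33%, next 3.74%). DMSO 1.3 stood apart for the share of KLF5 (50.4%, next 42.5%) and for IGFBP2 (71.0 CPM, next 1.43). DMSO 2.1 did so for ACTB (4490 CPM, next 3460), YWHAZ (1030 CPM, next 825) and EGR1 (166 CPM, next 73.5). CB-6644 1.2 did so for NHP2 (63.3 CPM, next 43.4) and CB-6644 2.1 for the share of IGFBP2 (0%, next 19.9%).

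The effect of CB-6644 at 4 h differed from that of KLF5 degradation by an edgeR interaction test (adjusted p under 0.05) in 8 of the named genes. Over all genes the test called 38 of 12761. All of the named genes called except TRNP1 are KLF5 targets. The targets were chosen on the degradation contrast, so a larger change there is in part fixed by the choice. CB-6644 minus degradation was 2.07 for TNS4, 2.02 for HR, 1.61 for SERPINB5, 1.47 for ELF3, 1.3 for PLAT, 1.18 for KCNK1 and 1.02 for SLC20A1 on the log2 scale, and it was −0.769 for TRNP1. TRNP1 was lower after CB-6644 in all 5 libraries than in any DMSO library, and its value after degradation was 0.19.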

How the results depend on the processing

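The count of 0 genes called in T>C counts became 4 with DESeq2 and 15 with the libraries of each experiment summed, and ranged from 0 to 1 when a library was left out (1 without DMSO 2.1). The 468 genes called in share became 0 after centring and 282 with experiment and culture set as the replicate block, and ranged from 130 to 475 with a library left out (130, 153 and 201 without CB-6644 1.2, 1.3 and 2.1, and 181, 158 and 205 without DMSO 1.1, 1.2 and 1.3). The difference in labelled reads was −1.92 points in experiment 1 alone and −0.985 in experiment 2 alone. The KLF5 target median was −0.23 in experiment 1 alone, −0.48 with library sizes from all reads and −0.072 in all reads, and ranged from −0.31 to −0.26 with a library left out. Same-numbered libraries of the 2 groups did not all deviate together (r from −0.0826 to 0.472, and 3 of 5 numbers matched best with their own), so the numbers were not used as pairs. A replicate block by full number called 0 genes, with 788 at an unadjusted p under 0.05. Signs reversed after centring for the shares of RUVBL1 (0.0073), KLF5 (0.013), ELF3 (0.073), HES1 (0.076), LIF (0.040), FMNL2 (0.15), STIP1 (0.21), KLF10 (0.092) and UBE2C (0.039). In all reads they reversed for PLAT (0.051), KLK10 (0.20), RHOF (0.29), TRNP1 (0.029), TPM4 (0.044), YWHAZ (0.0026), KRT18 (0.069) and RPL31 (−0.25), whose T>C counts had an unadjusted p under 0.05, and for RUVBL2 (−0.064), ELF3 (−0.0011), MYO1A (0.47), GPRC5A (0.076), IL22RA1 (0.059), KCNK1 (0.0013), CDKN1A (0.15), DHRS9 (0.18), ACTG1 (0.11), VIM (0.25), KRT8 (0.19), KRT19 (0.16), CLDN4 (0.038), KAT5 (0.077), MCRS1 (0.096) and HSPA5 (0.015), whose T>C counts had not. The other reversals had an unadjusted p above 0.05 before and after. They were in T>C counts RUVBL1 (−0.28), KLF5 (0.37), KCNK1 (0.040), KLF4 (0.0068) and VIM (0.072) in experiment 1 alone, KRT8 (0.088) and MCRS1 (0.31) in experiment 2 alone, RUVBL1 (−0.025), ELF3 (−0.12) and NOP56 (−0.076) with library sizes from all reads, MCRS1 (0.00346) with summed counts and KLF5 (0.00531) with the replicate block by full number, and in share STIP1 (0.042) with experiment and culture set as the replicate block. With a library left out, T>C counts changed sign for KLF5 (0.025, 0.095, 0.10, 0.060, 0.13 and 0.015 without CB-6644 1.1, 2.1 or 2.2 or DMSO 1.3, 2.1 or 2.2), ELF3 (−0.0033, −0.048 and −0.058 without CB-6644 1.1 or DMSO 1.3 or 2.2), MCRS1 (0.20, 0.12, 0.045 and 0.054 without CB-6644 1.1 or DMSO 1.1, 1.2 or 2.1), KRT8 (0.024 and 0.017 without CB-6644 1.1 or DMSO 1.2), RUVBL1 (−0.020 without CB-6644 2.2) and CDKN1A (0.013 without DMSO 1.3). Shares did so for STIP1 (0.0094, 0.019, 0.021 and 0.076 without CB-6644 1.1 or 1.2 or DMSO 1.1 or 1.2), CAMKK2 (−0.0021 and −0.040 without CB-6644 2.2 or DMSO 2.1) and EFTUD2 (−0.00771 without DMSO 1.1). The cause was not tested in any of these. Of the remaining results for named genes in T>C counts, 1838 kept side and direction, 186 became weaker and 91 stronger, and in share 1216, 48 and 20. With a BCV of 0.342 between libraries, small changes in single genes are not detectable in T>C counts.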
